A study of Mus musculus with 10 samples.

Results

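The RNAs described here are 10 noncoding transcripts, matched by gene symbol to rows of a deposited count table of 24544 genes. Of these, 8 are spliced host RNAs of small nucleolar RNAs (Gas5, Snhg1, Snhg3, Snhg5, Snhg6, Snhg8, Snhg12 and Zfas1), and the others are the nuclear RNAs Malat1 and Neat1. All 10 had a row and all 10 passed the filter on low counts. The set was chosen by RNA class and by the measured difference between the groups compared below, so these differences are given as a description, without a test. The samples were long-term hematopoietic stem cells, the rare bone marrow cells that maintain blood formation, taken at 2 to 3 months of age from mice of the Hoxb5-mCherry reporter strain. Both groups were sorted as negative for lineage markers, CD48, FLK2 and CD34 and positive for KIT, SCA1, CD150 and Hoxb5, and the gates differed only in surface neogenin-1, a receptor encoded by Neo1. There were 5 NEO1+ and 5 NEO1- libraries, each made from 250 to 500 cells pooled from 2 mice, by Smart-seq2, in which an oligo-dT primer starts reverse transcription. The series asks whether NEO1 separates myeloid-biased from balanced Hoxb5+ stem cells. The labels do not say that equal library numbers, or different libraries, stand for separate experiments, so the spread between libraries may in part be technical.

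Small nucleolar RNAs guide the methylation and pseudouridylation of ribosomal RNA, and most of them are cut out of the introns of a host transcript after splicing. The spliced exons of a noncoding host have no known protein product in most cases; many begin with a terminal oligopyrimidine tract, the feature that ribosomal protein mRNAs carry at their start, and several are degraded by nonsense-mediated decay when ribosomes read them. Malat1 is an abundant RNA of nuclear speckles, bodies rich in splicing factors, and Neat1 is the scaffold RNA of paraspeckles. Malat1 and the long form of Neat1 do not end in an ordinary poly(A) tail, so oligo-dT priming may record them unevenly. In bulk libraries, fewer cells with an RNA and less of it per cell cannot be told apart.

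Because most of the host RNAs were lower in the same group, the starts of their genes are shown from RefSeq (build GRCm38.p6). Entries were found for 8 of the 10 genes; Snhg6 and Neat1 had none. Each line runs from 45 bases before to 30 bases after the annotated start, on the transcribed strand. Capitals mark the letters TATAAA or TATATA on either strand, and a run of at least 5 bases of C and T. The run is marked from a C that lies between 5 bases before and 15 bases after the start and has no other C before it. A T may stand before that C, as in Snhg5, Snhg8 and Snhg12, where the stretch of pyrimidines begins earlier than the capitals. Gas5 has a further upstream entry that held neither.
Gas5 (chr1:161035121-161035195, plus strand): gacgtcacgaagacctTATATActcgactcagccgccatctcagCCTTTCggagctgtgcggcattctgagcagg
Snhg1 (chr19:8723442-8723516, plus strand): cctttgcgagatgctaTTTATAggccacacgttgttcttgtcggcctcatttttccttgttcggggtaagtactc
Snhg3 (chr4:132353657-132353731, minus strand): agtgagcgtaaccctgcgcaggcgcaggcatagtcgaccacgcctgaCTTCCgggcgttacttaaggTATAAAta
Snhg5 (chr9:88522868-88522942, minus strand): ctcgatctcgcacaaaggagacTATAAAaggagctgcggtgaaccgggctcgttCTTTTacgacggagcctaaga
Snhg8 (chr3:123508307-123508381, minus strand): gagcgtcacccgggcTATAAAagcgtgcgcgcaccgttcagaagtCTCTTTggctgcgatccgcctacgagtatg
Snhg12 (chr4:132308633-132308707, plus strand): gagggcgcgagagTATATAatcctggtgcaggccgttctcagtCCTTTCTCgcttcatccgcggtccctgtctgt
Zfas1 (chr2:167062889-167062963, plus strand): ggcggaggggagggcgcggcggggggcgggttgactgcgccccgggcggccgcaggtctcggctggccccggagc
Malat1 (chr19:5802643-5802717, minus strand): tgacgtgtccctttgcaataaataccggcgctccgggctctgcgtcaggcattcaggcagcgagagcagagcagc

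The letters TATAAA or TATATA were found in 6 of the 8 genes (Gas5, Snhg1, Snhg3, Snhg5, Snhg8 and Snhg12). By entry this was 66.7% of the 9 entries of these genes, against 5.28% of all 32851 promoter entries and 10.4% of 67 entries of ribosomal protein genes. In Gas5, Snhg1, Snhg5, Snhg8 and Snhg12 the letters began 29, 29, 23, 30 and 32 bases before the annotated start, and in Snhg3 they began at base 23 of the transcript. The pyrimidine run was found in 5 genes (Gas5, Snhg3, Snhg5, Snhg8 and Snhg12). By entry this was 55.6% of the 9, against 28.1% of all promoter entries and 50.7% of those of ribosomal protein genes. The run as marked began 1 base before the start in Gas5, 2 bases before it in Snhg12, and at bases 1, 3 and 10 in Snhg8, Snhg3 and Snhg5. Zfas1 and Malat1 held neither. Snhg1 held no run by this rule. It has a stretch of T and C shortly after the annotated start, but this begins with T. Its part from the C on is shorter than the 5 bases required, so it was not marked. TATATA and the rule for the run were chosen after these sequences had been read, and a match is a description of letters in this window.

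The libraries held between 21.2 and 38.9 M counts, so the least abundant of the 10 RNAs still had at least 98 counts in every library. CPM values here are counts scaled to a common library size by TMM; a count of 0 still allows a level of up to 3 counts, or 0.0699 to 0.144 CPM depending on the library. The libraries carried no molecular identifiers, so counting limits do not cover PCR duplication. All 10 listed stem cell markers were tested, and they summed to 2014 to 2269 CPM in the NEO1+ group and to 1948 to 2398 CPM in the NEO1- group. Neo1 was at 47.5 ± 20.5 and 10.7 ± 5.66 CPM (SD, n = 5 each), but NEO1+ library 4 lay within the NEO1- range. Among markers of other cells, the summed level (first NEO1+, then NEO1-) was 6.52 to 326 and 8.44 to 202 CPM for 8 erythroid genes (Hba-a2, Hbb-bs and Hbb-bt at 0 throughout), 492 to 3537 and 380 to 3060 CPM for 9 granulocyte and monocyte genes, and 186 to 219 and 110 to 181 CPM for 6 megakaryocyte genes, where the groups did not overlap. Of the lymphoid genes, Cd79b averaged 37.2 ± 7.37 CPM (NEO1+) and 35.9 ± 14.4 CPM (NEO1-; SD, n = 5 each), and Cd79a and Cd3d averaged at most 1.13 CPM in either group. Il7r was lower still over all libraries, and Pax5, Cd3e, Rag1 and Dntt were at 0 throughout.

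Gas5, the RNA that accumulates when growth is arrested and that hosts box C/D small nucleolar RNAs, was lower in NEO1+ cells. NEO1+ libraries 1 to 5 gave 287, 268, 244, 282 and 285 CPM, and NEO1- libraries 1 to 5 gave 480, 392, 416, 392 and 363 CPM. The groups did not overlap: the highest NEO1+ library lay below the lowest NEO1- library. The means were 273 ± 18.0 and 409 ± 44.2 CPM (SD, n = 5 each). The fitted log2 fold change was -0.58 (SE 0.09), a change of -33.2%. Gas5 lies on chromosome 1 (chr1:161034422-161038539, plus strand, GENCODE M21 on GRCm38) and holds 10 annotated small nucleolar RNA genes on its strand.

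Malat1, on chromosome 19 (chr19:5795690-5802672, minus strand), differed by the same proportion. NEO1+ libraries 1 to 5 gave 4730, 2391, 3180, 3975 and 3435 CPM, and NEO1- libraries 1 to 5 gave 5915, 5212, 4934, 4870 and 5624 CPM. Again the groups did not overlap, although NEO1+ library 1 came close to the lowest NEO1- library. The means were 3542 ± 876 and 5311 ± 450 CPM (SD, n = 5 each). The fitted log2 fold change was -0.58 (SE 0.14), a change of -33.3%. As a share of all counts without TMM scaling, Malat1 took 0.244 to 0.465% (NEO1+) and 0.454 to 0.561% (NEO1-), so that the groups overlapped on that scale.

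Neat1 (chr19:5824708-5845478) is the neighbour of Malat1 on the same strand, 22035 bases away, and it was not lower. NEO1+ libraries 1 to 5 gave 142, 47.7, 92.0, 97.4 and 75.7 CPM, and NEO1- libraries 1 to 5 gave 66.9, 87.4, 85.7, 95.9 and 60.4 CPM. The NEO1+ libraries held both the highest and the lowest value, so the groups overlapped in full. The log2 fold change was 0.20 (SE 0.25), and without NEO1+ library 1 it was -0.02.

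**Figure D1:**
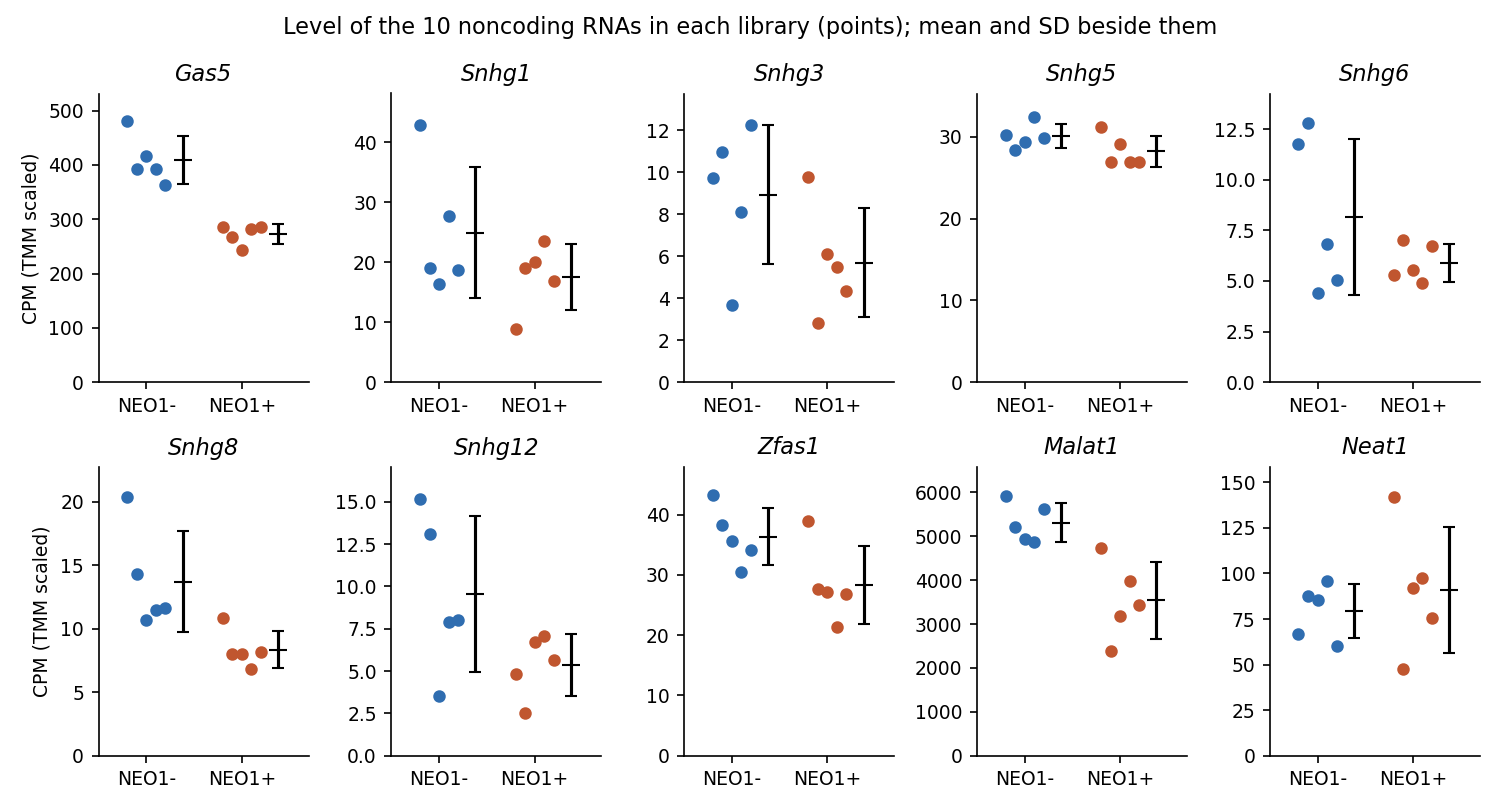
Level of each RNA in every library, in CPM scaled by TMM, with NEO1- libraries in blue and NEO1+ libraries in orange; the bars are the mean and SD of 5 libraries. Gas5 and Malat1 are the RNAs whose groups do not overlap, and Snhg5 is nearly level.

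The other host RNAs were at 43.3 CPM or less, and the ranges of both groups met in each of them. Snhg8, which hosts Snora24, gave 10.8, 7.98, 7.99, 6.81 and 8.16 CPM in the NEO1+ group (libraries 1 to 5) and 20.4, 14.3, 10.7, 11.5 and 11.6 CPM in the NEO1- group (libraries 1 to 5). The groups met at a single pair of libraries, NEO1+ library 1 and NEO1- library 3. Its log2 fold change was -0.71 (SE 0.42). Without either of these libraries the groups of Snhg8 did not overlap.

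Zfas1, which hosts Snord12 and runs antisense to the start of Znfx1, gave 39.0, 27.6, 27.2, 21.3 and 26.8 CPM in the NEO1+ group (libraries 1 to 5) and 43.3, 38.3, 35.6, 30.5 and 34.2 CPM in the NEO1- group (libraries 1 to 5). Only NEO1+ library 1 reached into the NEO1- range, and without it the groups did not overlap. The log2 fold change was -0.36 (SE 0.23). Znfx1, a protein-coding gene on the opposite strand, averaged 31.1 ± 7.69 CPM (NEO1+) and 30.6 ± 4.04 CPM (NEO1-; SD, n = 5 each); whether strand was used in counting is not given in the sources used here, so reads of the overlap cannot be assigned to either.

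Snhg5, the host of Snord50a and Snord50b, varied little between libraries. NEO1+ libraries 1 to 5 gave 31.2, 27.0, 29.1, 27.0 and 27.0 CPM, and NEO1- libraries 1 to 5 gave 30.3, 28.4, 29.4, 32.4 and 29.9 CPM. Its coefficient of variation was 6.63% (NEO1+) and 4.88% (NEO1-), beside 6.57% and 10.8% for Gas5, and the log2 fold change was -0.09 (SE 0.20).

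Snhg1, Snhg3, Snhg6 and Snhg12 had the 4 highest coefficients of variation in the NEO1- group, at 37.2 to 48.4%; in the NEO1+ group theirs were 15.9 to 45.4%, and Snhg6 was there below Snhg8, Zfas1, Malat1 and Neat1. Snhg1, the host of Snord22 and other box C/D RNAs, ranged from 8.79 to 23.5 CPM in the NEO1+ group and from 16.3 to 42.8 CPM in the NEO1- group (log2 fold change -0.50, SE 0.36; -0.33 without NEO1+ library 1 and -0.21 without NEO1- library 1). Snhg12, which hosts Snora16a, Snora44, Snora61 and Snord99, ranged from 2.51 to 7.09 and from 3.52 to 15.2 CPM (-0.83, SE 0.62). Snhg6, the host of Snord87, ranged from 4.90 to 7.04 and from 4.40 to 12.8 CPM (-0.47, SE 0.60; -0.30 without NEO1- library 1 and -0.25 without NEO1- library 2).

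Snhg3, which hosts Snora73a and Snora73b, ranged from 2.81 to 9.75 CPM in the NEO1+ group and from 3.66 to 12.2 CPM in the NEO1- group (-0.65, SE 0.62). Its exons overlap the span of Rcc1, a regulator of chromosome condensation on the same strand. Rcc1 averaged 32.0 ± 8.57 CPM (NEO1+) and 24.6 ± 7.38 CPM (NEO1-, SD, n = 5 each). Whether exons of both genes overlap was not checked, so reads of any shared part may have gone to either gene. For these 4 RNAs the standard error was of the size of the difference or close to it.

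**Figure D2:**
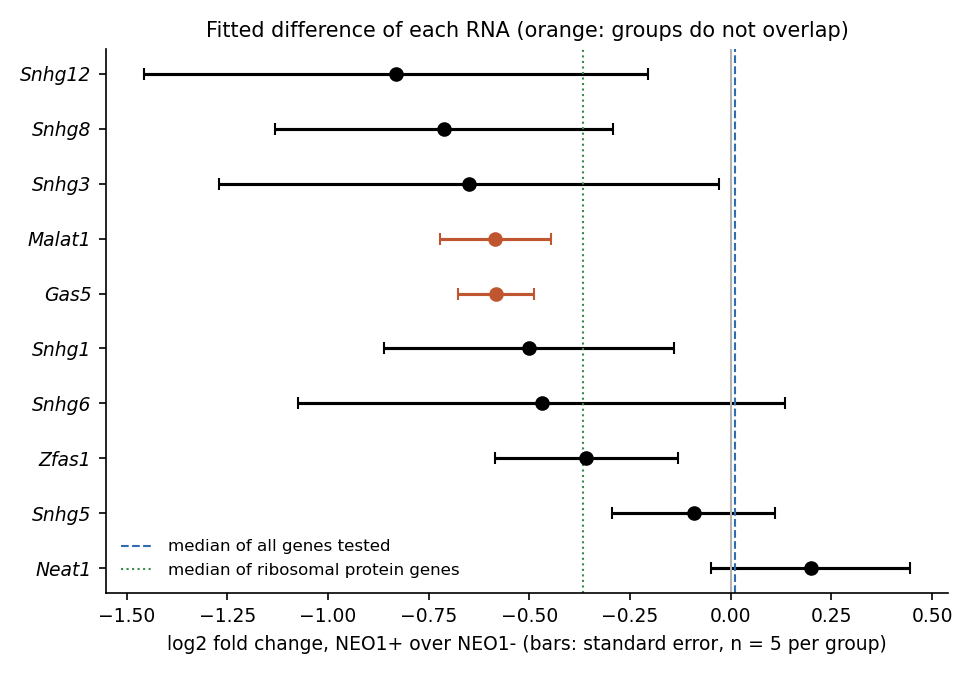
Fitted log2 fold change of each RNA (NEO1+ over NEO1-) with its standard error, in order of size; orange points are the RNAs whose groups do not overlap. Of the 10 points, 9 lie below 0 (6 when scaled to Rn45s and 8 when scaled to ribosomal protein genes), and those of Gas5 and Malat1 have the narrowest bars; the dashed line is the median of all genes tested (0.01) and the dotted line that of ribosomal protein genes (-0.37).

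Summed over the 8 host RNAs, the NEO1+ group averaged 373 ± 19.0 CPM and the NEO1- group 541 ± 65.7 CPM (SD, n = 5 each), and the groups did not overlap. Without Gas5, which makes up most of this sum, it was 99.5 ± 6.55 and 132 ± 26.2 CPM, and the groups overlapped: NEO1+ library 1 was at 110 CPM and NEO1- library 3 at 104 CPM. All 8 host RNAs and Malat1 had a log2 fold change below 0, as did 49.0% of all 12203 genes tested; scaled to ribosomal RNA or ribosomal protein genes, Snhg5 and up to 2 more of them lay above 0. The median was -0.54 over the 10 RNAs and 0.01 over all genes tested.

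By the quasi-likelihood test of edgeR over the whole table, 0 of the 10 RNAs and 0 of 12203 genes had an adjusted p under 0.05 (0.0% in either direction), while 806 genes had an unadjusted p under 0.05. DESeq2 on the same counts called 146 genes. Among the 10 RNAs it called Gas5 and Malat1, both lower in NEO1+, in a table where 0.383% of the genes it tested were called lower. The groups did not overlap in 2 of the 10 RNAs, again Gas5 and Malat1, whereas 1.13% of all genes tested were lower in NEO1+ without overlap and 1.35% were higher. Since the set was chosen with this contrast known, nothing is read from these counts.

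Per length, Malat1 and Gas5 stood above the others. Dividing CPM by the length of all annotated exons gave means over the 10 libraries of 634 CPM per kb for Malat1 (342 to 847) and 90.7 for Gas5 (64.9 to 128), with no overlap between them. Below these came Snhg5 at 16.9 CPM per kb (15.6 to 18.7), Snhg8 at 12.9 (7.99 to 23.9), Zfas1 at 11.1 (7.27 to 14.8), Snhg3 at 7.42 (2.85 to 12.4), Snhg1 at 7.16 (2.96 to 14.4), Snhg6 at 6.14 (3.84 to 11.2), Neat1 at 4.10 (2.30 to 6.84) and Snhg12 at 3.10 (1.04 to 6.31). From Snhg5 downwards, the range of each RNA over the libraries overlapped that of the next, so neighbours in this order were not separated. The annotated exons include retained introns, and for Neat1 the whole long form. With the median length of the annotated transcripts instead, Malat1 and Gas5 again came first and second, and Neat1 moved from place 9 to place 4.

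Ratios of RNAs within a library do not depend on how libraries are scaled; the pairs were chosen after the levels had been seen. Counts of Malat1 per Neat1 count were 33.3, 50.1, 34.6, 40.8 and 45.4 in the NEO1+ group (libraries 1 to 5) and 88.3, 59.6, 57.6, 50.8 and 93.2 in the NEO1- group (libraries 1 to 5). The groups did not overlap, although NEO1+ library 2 and NEO1- library 4 were nearly level. Malat1 per Gas5 count was 12.9 ± 2.78 and 13.1 ± 1.45 (SD, n = 5 each), with full overlap. Gas5 per Snhg5 count was 9.71 ± 0.919 (NEO1+) and 13.6 ± 1.57 (NEO1-; SD, n = 5 each), without overlap.

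Against ribosomal RNA and ribosomal protein genes the separation was smaller. Rn45s, the gene of the ribosomal RNA precursor, took 27.9 to 37.7% of the counts in the NEO1+ group and 30.7 to 42.4% in the NEO1- group. Whether these reads came from the precursor or from mature ribosomal RNA was not tested. Per 1000 Rn45s counts, Gas5 averaged 0.903 ± 0.146 (NEO1+) and 1.03 ± 0.203 (NEO1-; SD, n = 5 each), with overlap. Per 1000 CPM of the 77 ribosomal protein genes tested, it was at 8.41 ± 0.543 and 10.2 ± 1.31 (SD, n = 5 each), where NEO1- library 2 (8.03) lay inside the NEO1+ range. Malat1 overlapped on both scales as well, at 11.7 ± 3.13 and 13.4 ± 2.71 per 1000 Rn45s counts and at 109 ± 27.7 and 133 ± 21.2 per 1000 CPM of ribosomal protein genes (NEO1+ and NEO1-; SD, n = 5 each). All 10 RNAs overlapped between groups on either scale. Scaled to Rn45s, 6 of the 10 RNAs were lower in NEO1+ and Snhg5, Snhg6, Zfas1 and Neat1 were higher; scaled to ribosomal protein genes, 8 were lower and Snhg5 and Neat1 were higher. Gas5, Malat1, Snhg1, Snhg3, Snhg8 and Snhg12 were lower on both scales. Each scale also moved the median of 9913 genes with a count in every library, to 0.44 for Rn45s and to 0.35 for ribosomal protein genes (log2 difference, NEO1+ minus NEO1-), and 9 of the 10 RNAs lay below that median on either.

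**Figure D3:**
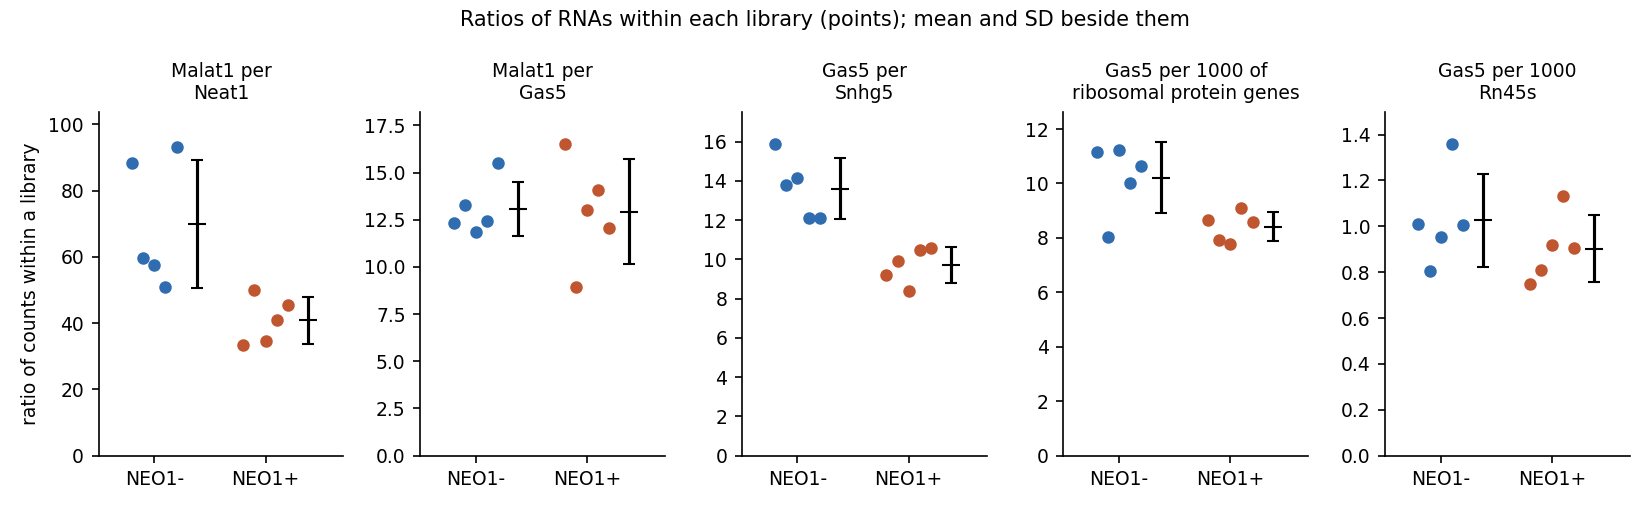
Ratios of counts within each library, with NEO1- libraries in blue, NEO1+ libraries in orange and bars for the mean and SD of 5 libraries. Malat1 per Neat1 and Gas5 per Snhg5 separate the groups, while Malat1 per Gas5, Gas5 per 1000 CPM of ribosomal protein genes and Gas5 per 1000 Rn45s counts do not.

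The small nucleolar RNAs themselves were next to absent. GENCODE places 32 small nucleolar RNA genes inside the 8 hosts on their strand; 9 of their symbols had a row, 8 of these had any count, and the largest count was 33. That count belonged to Snord47, which lies in Gas5, at 0.154 to 0.396 CPM (NEO1+) and 0.456 to 1.05 CPM (NEO1-). Mature small nucleolar RNAs have no poly(A) tail and small fragments were removed from the libraries with beads. Snord47 also overlaps annotated exons of Gas5, so its few reads may belong to Gas5. Over all 119 rows named for small nucleolar or small Cajal body RNAs, the summed level was 28.9 to 41.6 CPM (NEO1+) and 31.5 to 52.6 CPM (NEO1-).

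Other host genes were read from lists of textbook members, of which the 3 most abundant are named. Of 12 other noncoding hosts, 11 were tested. Of these, 7 had a log2 fold change below 0 and 4 above, with a median of -0.34 (-0.14 with the library number as a block). In edgeR 0 passed the test in either direction, as over all 12203 genes tested, and DESeq2 called 0. Snhg15 averaged 15.7 ± 2.58 CPM (NEO1+) and 22.6 ± 1.86 CPM (NEO1-; SD, n = 5 each; log2 fold change -0.53, SE 0.27), and its groups did not overlap. Snhg20 was at 28.3 ± 8.72 and 44.4 ± 15.4 CPM (-0.65, SE 0.28), and Snhg17 at 15.9 ± 1.69 and 20.1 ± 10.6 CPM (-0.34, SE 0.40), both with overlap.

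Of 20 protein-coding hosts, 17 were below 0 and 3 above, with a median of -0.19 and 0 edgeR calls in either direction; 5 did not overlap between groups, all lower in NEO1+ (Eef1b2, Tpt1, Rpl7a, Rpl13a and Rpl23a, named after their values were seen), and DESeq2 called 5, all lower; over all genes 1.13% were lower without overlap and 0.383% were called lower by DESeq2. The most abundant were the elongation factor gene Eef2 (log2 fold change 0.05, SE 0.06) and the ribosomal protein genes Rpl3 (-0.18, SE 0.07) and Rpsa (-0.21, SE 0.10). Of 77 ribosomal protein genes, 76 were below 0, with a median of -0.37, and 16 did not overlap; edgeR called 0 and DESeq2 16, all lower, beside the same shares of 1.13% and 0.383% over all genes. Rplp0 (-0.19, SE 0.08) and Rpl4 (-0.14, SE 0.07) were, with Rpl3, the most abundant of them. Ribosomal protein genes have many processed copies that can share reads. Those among the coding hosts, such as Rpl3 and Rpsa, are counted in both lists. A further list held 12 translation factor genes and related genes such as Npm1, taken as having a terminal oligopyrimidine tract, which was not checked here. Of these, 10 were below 0 and the median was -0.15, with 0 edgeR calls, as over all genes. In this list 2 genes were lower without overlap (Eef1b2 and Tpt1, which are also in the list of coding hosts), and DESeq2 called 2 lower. The shares over all genes were again 1.13% and 0.383%. Eef1a1, the most abundant, was at 6710 ± 266 and 7122 ± 300 CPM (SD, n = 5 each; -0.09, SE 0.04), and Npm1, the nucleolar chaperone nucleophosmin, was at -0.03 (SE 0.08). The median of the 8 host RNAs of the set, -0.54, was lower than that of each of these lists. Since the set was chosen with this contrast known, nothing is read from that order, and the difference between lists was not tested.

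Genes of the proteins that work with these RNAs had list medians on both sides of 0. Of 17 proteins of small nucleolar ribonucleoproteins and their assembly, 14 were below 0, with a median of -0.18. Nop56 and Nop58, core proteins of box C/D particles, had log2 fold changes of -0.15 (SE 0.14) and 0.27 (SE 0.14), and Ruvbl1, an assembly ATPase, one of -0.09 (SE 0.12). Of 10 factors of nonsense-mediated decay, 7 were above 0, with a median of 0.17; Upf1, the central helicase, was at 0.29 (SE 0.26), Smg6, an endonuclease, at 0.08 (SE 0.15), and the kinase Smg1 at -0.73 (SE 0.28). None of these genes was called by edgeR, which called 0 of all 12203 genes tested, so nothing is read from this. DESeq2 called 0 in both lists, against 0.616% higher and 0.383% lower over all genes.

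Protein genes of the bodies in which Malat1 and Neat1 reside had list medians within 0.15 of 0. Of 9 nuclear speckle genes, 8 were below 0, with a median of -0.15, among them the splicing factors Srsf5 (-0.13, SE 0.11), Srsf2 (-0.15, SE 0.07) and Srsf7 (-0.22, SE 0.13). Of 9 paraspeckle genes, 6 were above 0, with a median of 0.14, among them Hnrnpk (0.14, SE 0.07) and Nono (0.20, SE 0.11), while Sfpq was at -0.04 (SE 0.23). Of 8 other long noncoding RNAs of the nucleus or regulatory kind, 7 were tested, 5 of them below 0, with a median of -0.13 (-0.045 with the library number as a block). Kcnq1ot1, the imprinted antisense RNA, averaged 59.7 ± 22.2 CPM (NEO1+) and 102 ± 40.7 CPM (NEO1-; -0.77, SE 0.30), 2900097C17Rik, the mouse Norad, at 132 ± 8.18 and 112 ± 19.5 CPM (0.23, SE 0.14), and Tug1 at 57.6 ± 14.0 and 63.1 ± 16.5 CPM (-0.13, SE 0.23; SD, n = 5 each). In all 3 of these lists edgeR called 0 genes, as over all 12203 genes tested, so nothing is read from this. DESeq2 called 0 in each, against 0.616% higher and 0.383% lower over all genes. In 1 nuclear speckle gene the groups did not overlap (lower in NEO1+), against 1.13% over all genes.

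**Figure D4:**
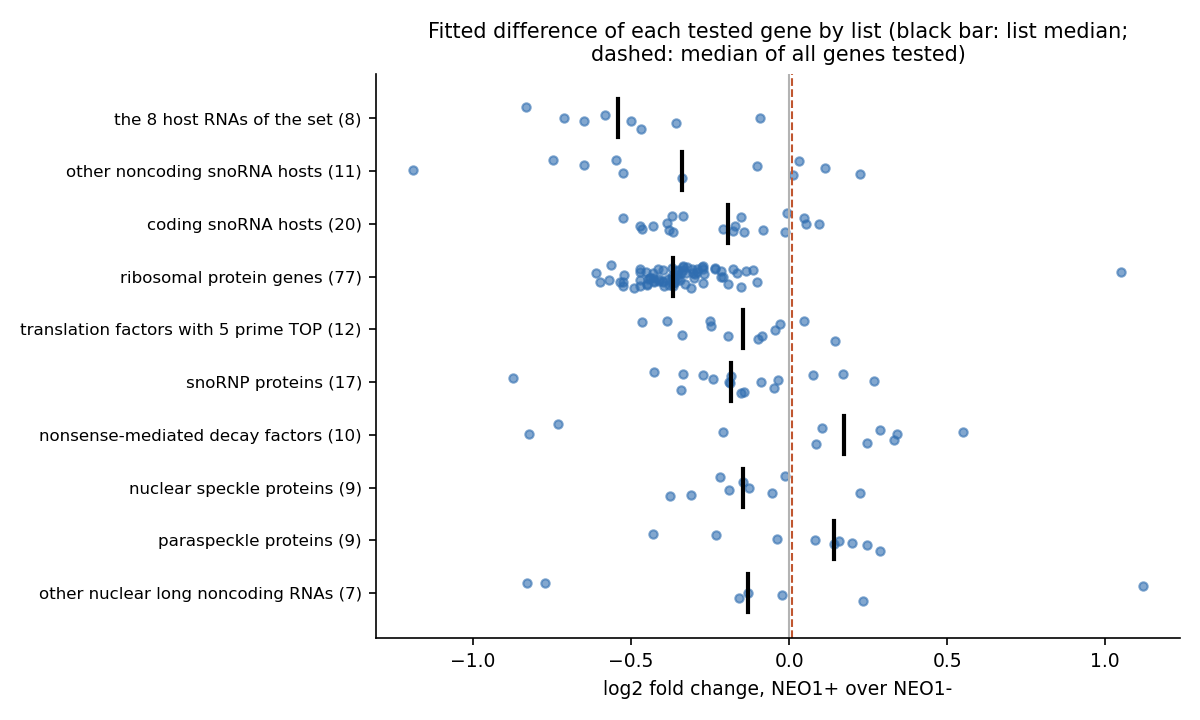
Fitted log2 fold change (NEO1+ over NEO1-) of every tested gene of each list, 1 point per gene, with the list median as a black bar, the median of all genes tested (0.01) as a dashed line and the number tested in brackets. The host RNAs of the set, which were chosen with this contrast known, have the lowest median (-0.54). The medians of decay factors (0.17) and paraspeckle proteins (0.14) lie above 0.

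The 10 RNAs did not vary as 1 block from library to library. After subtraction of group means, the Pearson correlation of log2 CPM over the 10 libraries was positive in 22 of the 28 pairs of host RNAs, with a median of 0.34 and a range from -0.41 to 0.83. These correlations are descriptions; all points share their library, its depth and its scaling. Among host RNAs, Snhg8 and Zfas1 were the closest pair (0.83), Snhg3 and Snhg12 the next (0.72), and Snhg1 and Zfas1 the most opposed (-0.41). Malat1 was closest to Snhg3 (0.72), and Snhg1 and Neat1 were at -0.41. Malat1 and Neat1 correlated at 0.69 within groups, although their differences between groups had opposite signs.

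Among 5027 other genes with a mean log2 CPM of at least 5, those closest to Gas5 within groups were Inf2 (r = 0.97), Pycard (0.95) and Fbl (0.95). Inf2 encodes a formin, Pycard an inflammasome adaptor and Fbl fibrillarin, the methyltransferase of box C/D particles. Fbl averaged 48.2 ± 4.23 CPM (NEO1+) and 64.8 ± 17.4 CPM (NEO1-; SD, n = 5 each; log2 fold change -0.43, SE 0.20), while Inf2 and Pycard were at -0.06 (SE 0.26) and -0.15 (SE 0.20). Closest to Malat1 were Sart3 (0.92), Cdk18 (0.86) and Myg1 (0.83), and closest to Neat1 were Bpgm (0.89), Gtf2h5 (0.89) and Tnip1 (0.87). These are the highest of 5027 values over only 10 libraries, and how high such values run by chance was not tested. Without subtraction of group means, r was 0.38 for Inf2 and -0.0066 for Cdk18. The other named genes then lay between 0.56 (Pycard) and 0.90 (Bpgm).

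**Figure D5:**
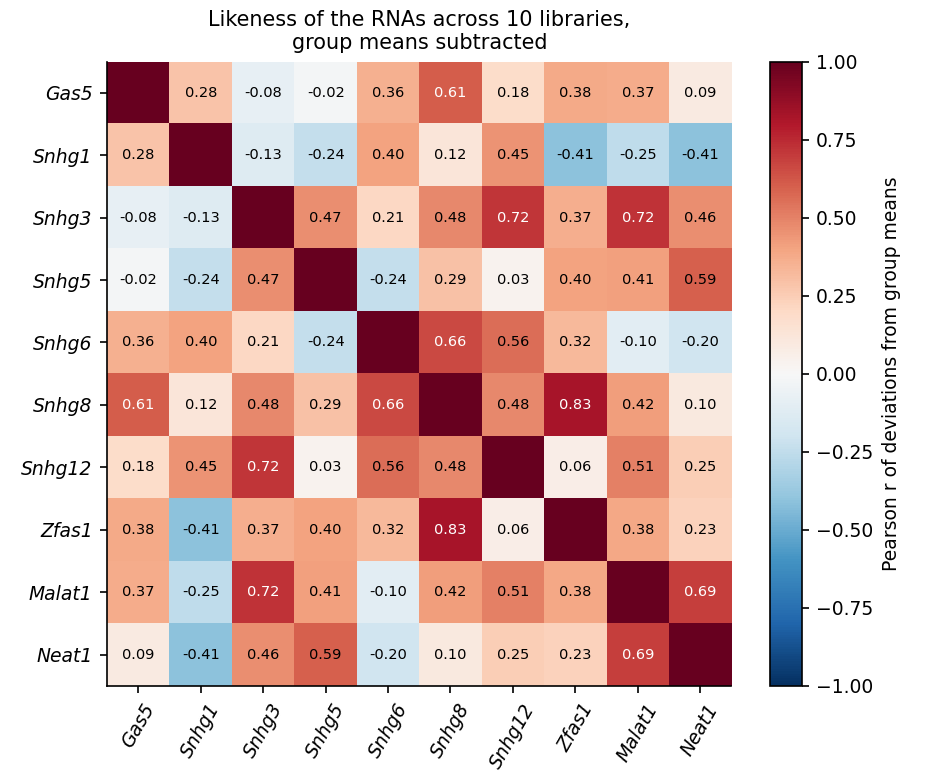
Pearson correlation between the 10 RNAs over 10 libraries, computed on log2 CPM after the mean of each group was subtracted; red is positive and blue negative. The darkest red cell off the diagonal is Snhg8 with Zfas1 (0.83), and Snhg1 is blue against Zfas1 and Neat1 (-0.41 each).

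Measures of whole libraries moved with the groups as well. Genes with at least 1 count numbered 12800 to 13808 (NEO1+) and 11477 to 13147 (NEO1-), and within groups this number correlated with Gas5 at -0.72 and with Malat1 at -0.22 over the 10 libraries. The Rn45s share correlated with Gas5 at 0.49, with Zfas1 at 0.84 and with Malat1 at 0.22 in the same way. The 10 RNAs did not share a sign on either measure. The Rn45s share was at -0.39 with Snhg1, -0.13 with Snhg5 and -0.037 with Snhg12. The number of genes was at 0.34 with Snhg5, 0.21 with Snhg3, 0.14 with Snhg12 and 0.13 with Snhg1 and Neat1. The summed level of 12 G2 and M phase genes was 290 to 541 CPM (NEO1+) and 80.1 to 219 CPM (NEO1-), and that of 12 S phase genes 1134 to 1689 and 626 to 1203 CPM. The part of these measures, and of the markers of other cells, in the differences of the 10 RNAs was not tested.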

How the data were processed

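Bulk RNA-seq of 10 libraries was read from the count table that the authors deposited, with unnormalised counts for each gene symbol; per the submitters' processing notes, bcl2fastq 2.18, STAR 2.4 and DESeq2 1.22.2 were used with build mm10, while the annotation and the use of strand are not given in the sources used here. The authors also deposited log2 values, each the log2 of a count divided by 1 constant per library, plus 1, which served for 1 alternative. Total counts were 21.2 to 38.9 M per library.

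Counts were fitted in edgeR 4.0.16 (R 4.3.3) with filterByExpr (12203 of 24544 genes kept), TMM, robust dispersion and the quasi-likelihood test of NEO1+ against NEO1-, with Benjamini-Hochberg adjustment over all genes tested and a threshold of 0.05. Standard errors were obtained by dividing the absolute log2 fold change by the square root of the F statistic. CPM uses TMM-scaled library sizes, and log2 CPM per library adds a prior count of 2. The fit was tested on simulated data with known changes. No pair of libraries of a group agreed within sampling noise (chi-square of at least 83.1 per degree of freedom).

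Alternatives were DESeq2 1.42.0, DESeq2 size factors, no filter on low counts, the library number as a block, the table without Rn45s, limma-trend (limma 3.58.1) on the deposited log2 values, and each library left out. The overlap of groups with a library left out or without TMM, and the scaling to Rn45s and to ribosomal protein genes, were added after the data were seen. The 10 RNAs and the gene lists were chosen with earlier results of these data known. Named are all 10 RNAs, the 3 most abundant genes of each list around them, the 3 genes closest to Gas5, Malat1 and Neat1 within groups, and Rn45s and Neo1; overlapping genes and Snord47 were added after their values were seen. Gene positions and exons come from GENCODE M21 (GRCm38, the assembly that mm10 names) and promoter sequences from RefSeq. List symbols missing from the table were matched through older names (Snhg16 to 1810032O08Rik, Norad to 2900097C17Rik). The summed level of the lymphoid marker list is not reported here.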

Additional observations from a re-analysis of the deposited data

How the results depend on the processing

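The count of genes past the threshold, 0 in edgeR, was 146 in DESeq2 (90 higher and 56 lower in NEO1+), 2 without the filter on low counts, 1 in limma-trend on the deposited values and 0 to 1 in edgeR with a library left out; the call came without NEO1- library 1. It was 0 in edgeR with DESeq2 size factors or without Rn45s. The library number as a block gave 0 in edgeR and 727 in DESeq2 (567 higher, 160 lower). Between libraries of equal number, the deviations from the group means correlated at 0.0040 to 0.036. Low values over noisy genes cannot show whether such libraries shared mice or a sort day, so pairing stays unknown. Under the block, Gas5 was at -0.58 in edgeR and Malat1 at -0.62. The median of all genes tested was 0.11 in limma-trend and 0.099 with the block in edgeR.

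Under each planned setting that kept all libraries, 9 of the 10 RNAs were below 0. The log2 fold change of Gas5 was between -0.62 and -0.52 and that of Malat1 between -0.71 and -0.47 with a library left out; that of Neat1 was between -0.019 and 0.36, the lowest without NEO1+ library 1. Snhg1 was between -0.63 and -0.21. Scaled to Rn45s, Snhg5 reversed to 0.31, Snhg6 to 0.049 and Zfas1 to 0.023, and scaled to ribosomal protein genes Snhg5 reversed to 0.21. The RNAs without overlap numbered 2 to 4 with a library left out (4 without NEO1+ library 1, which added Snhg8 and Zfas1, or without NEO1- library 3, which added Snhg8 and Snhg12), 1, Gas5, with CPM of all counts without TMM, and 0 when scaled to Rn45s or to ribosomal protein genes. The causes were not tested. In 20 groups of 5 values of the 10 RNAs, 0 had a library apart by Dixon's 95% critical value, where 1 is expected by chance. Each of these RNAs had at least 98 counts in every library, but without molecular identifiers the number of molecules behind the counts is not known. There were 5 libraries a group, and what limits the precision was not tested.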
